A study of Mus musculus with 8 samples.

Results

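The antioxidant, glutathione and NRF2 genes described here were 43 genes, taken by name, of the 55573 genes counted in cultured mouse colon fibroblasts. They comprised the NRF2 regulator pair, targets of NRF2 in detoxification, the enzymes that make and use glutathione, the thioredoxin and peroxiredoxin system, the pentose phosphate enzymes, superoxide dismutases and catalase, iron and haem proteins, and the oxidase gene Nox4. Each name matched a single Ensembl identifier, and all 43 passed the low-count filter that left 15259 genes for the test. The irradiated group held 4 libraries of C57BL6/J colon fibroblasts that had received APTKA-conditioned medium and 3 fractions of 2 Gy, with RNA taken 72 h after the first fraction. The non-irradiated group held 4 libraries of the same strain and cell type with the same conditioned medium and no irradiation. All cells were grown as flat cultures on plastic in Advanced DMEM F12 with 10% FBS. The labels do not say what APTKA stands for, and fibroblasts without the conditioned medium were not analysed here, so each difference below compares irradiated with non-irradiated cells that both had that medium. The labels name no age. They do not state that the libraries of a group are from different animals or cultures, so a p-value here weighs a difference against the variation among these libraries, and that variation may be technical.

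NRF2, encoded by Nfe2l2, is a transcription factor that KEAP1 marks for degradation in unstressed cells. Oxidants and electrophiles modify KEAP1, and NRF2 then accumulates and binds antioxidant response elements in genes for glutathione synthesis, thioredoxin recycling, NADPH supply and iron storage. Glutathione and thioredoxin pass electrons from NADPH to peroxidases that remove hydrogen peroxide and lipid peroxides. Because NRF2 is controlled mostly at the protein level, its targets are commonly read beside its own RNA. Ionizing radiation splits water into reactive oxygen species, which is why these genes are commonly examined in irradiated cells.

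Promoter sequence was read for 37 of the 43 genes from RefSeq (GRCm38.p6), from 250 bases before to 50 bases after each start site. The core of the antioxidant response element, written TGACNNNGC and searched on both strands, was present in 10 of these 37 genes (27.0%), against 14.0% of 27025 genes and 12.4% of 32851 promoters. The 10 genes were G6pdx, Gclm, Me1, Mgst1, Nfe2l2, Pgd, Prdx1, Sod1, Srxn1 and Txnrd1. 4 of these sites are printed because the RNA of their genes is compared below. Each is written along the gene's strand with the core in capitals, and capitals that begin with GC hold a core that reads on the opposite strand.
Me1, chr9:86695896-86695936, minus strand: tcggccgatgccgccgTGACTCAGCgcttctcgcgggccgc
Prdx1, chr4:116685450-116685490, plus strand: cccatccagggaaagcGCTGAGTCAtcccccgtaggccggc
Gclm, chr3:122245407-122245447, plus strand: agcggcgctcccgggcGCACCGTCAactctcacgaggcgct
Txnrd1, chr10:82859098-82859138, plus strand: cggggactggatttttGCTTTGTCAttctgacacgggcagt
The core of the amino acid response element, to which ATF4 binds, was searched as TGATGNAA on both strands. It was present in 3.97% of the promoters and 4.5% of the genes, and among the 37 genes in Slc7a11 alone. The Slc7a11 promoter (chr3:50443564-50443863, minus strand) is printed whole because this gene showed the largest fall among the genes that passed the test, and capitals mark the 2 matches. They lay 66 to 59 bases before the start site on the gene's strand and 47 to 40 bases before it on the opposite strand, and 44.7% of the 300 bases were G or C.
Slc7a11 promoter: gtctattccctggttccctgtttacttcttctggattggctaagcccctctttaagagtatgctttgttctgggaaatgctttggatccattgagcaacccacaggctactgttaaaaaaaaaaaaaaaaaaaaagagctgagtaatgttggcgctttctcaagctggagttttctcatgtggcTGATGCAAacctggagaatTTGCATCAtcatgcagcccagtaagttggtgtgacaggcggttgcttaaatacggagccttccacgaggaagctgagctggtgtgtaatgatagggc
A match describes the letters of a window and does not show that a factor binds there. The promoters read for Gpx3, Prdx4 and Tkt held neither core. No promoter sequence was given for Gclc, Gsr, Gsta4, Hmox1, Prdx6 and Sod3, so these genes were not searched.

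The 8 libraries held between 28731227 and 37157216 counts. Summed over 11 genes, markers of fibroblasts were high in every library (CPM are counts scaled to library size, here with TMM factors). The sum was 14800 to 16120 CPM in irradiated libraries and 16240 to 19080 CPM in non-irradiated libraries. Collagen genes led the sum. Lum and Fap were low, with means of 5.81 and 3.05 CPM in irradiated and 5.44 and 3.92 CPM in non-irradiated libraries. Smooth muscle and pericyte markers summed to 306.9 to 362.0 CPM in irradiated libraries and 362.6 to 392.3 CPM in non-irradiated libraries. Most of this was Actg2, at 270.0 to 312.2 CPM in irradiated and 319.4 to 341.5 CPM in non-irradiated libraries. Des, Rgs5 and Cspg4 averaged under 1 CPM in both groups. All 10 epithelial markers were under 1 CPM in both groups, leukocyte markers summed to at most 5.67 CPM, and Tyrobp had no count. Irradiated libraries I and II stood apart in mitochondrial ribosomal RNA, with 15129 and 15263 CPM of total counts, while irradiated III and IV held 4358 and 5934 and the non-irradiated libraries 4179 to 5915. The part of these differences in the results was not tested.

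By edgeR's quasi-likelihood test with Benjamini-Hochberg adjustment over all genes tested, 5 of 43 genes passed an adjusted p of 0.05 (11.6%), against 6.74% of all genes tested, and they did not share a direction. Gclc and Gpx3 rose, and the background of genes called higher was 2.59%. Slc7a11, Prdx4 and Tkt fell, and the background of genes called lower was 4.15%. In bulk RNA, fewer cells of a type and less RNA per cell cannot be told apart. The median log2 fold change (irradiated over non-irradiated) of the 43 genes was -0.03, with 16 above 0 and 27 below 0, while the median of all genes tested was 0.001 and 49.7% of them were below 0. An unadjusted p under 0.05 was found for 13 of the 43 genes (30.2%), against 21.2% of all genes tested. The groups did not overlap for 9 of the 43 genes (20.9%), against 14.2% of all genes tested. The 43 genes together made up 7717 ± 157 CPM in irradiated libraries and 7519 ± 361.9 CPM in non-irradiated libraries (SD, n = 4 each). The 95% interval of the fold change lay inside 1.25-fold in either direction for 33 of the 43 genes, and inside 2-fold for 42 of them.

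**Figure D1:**
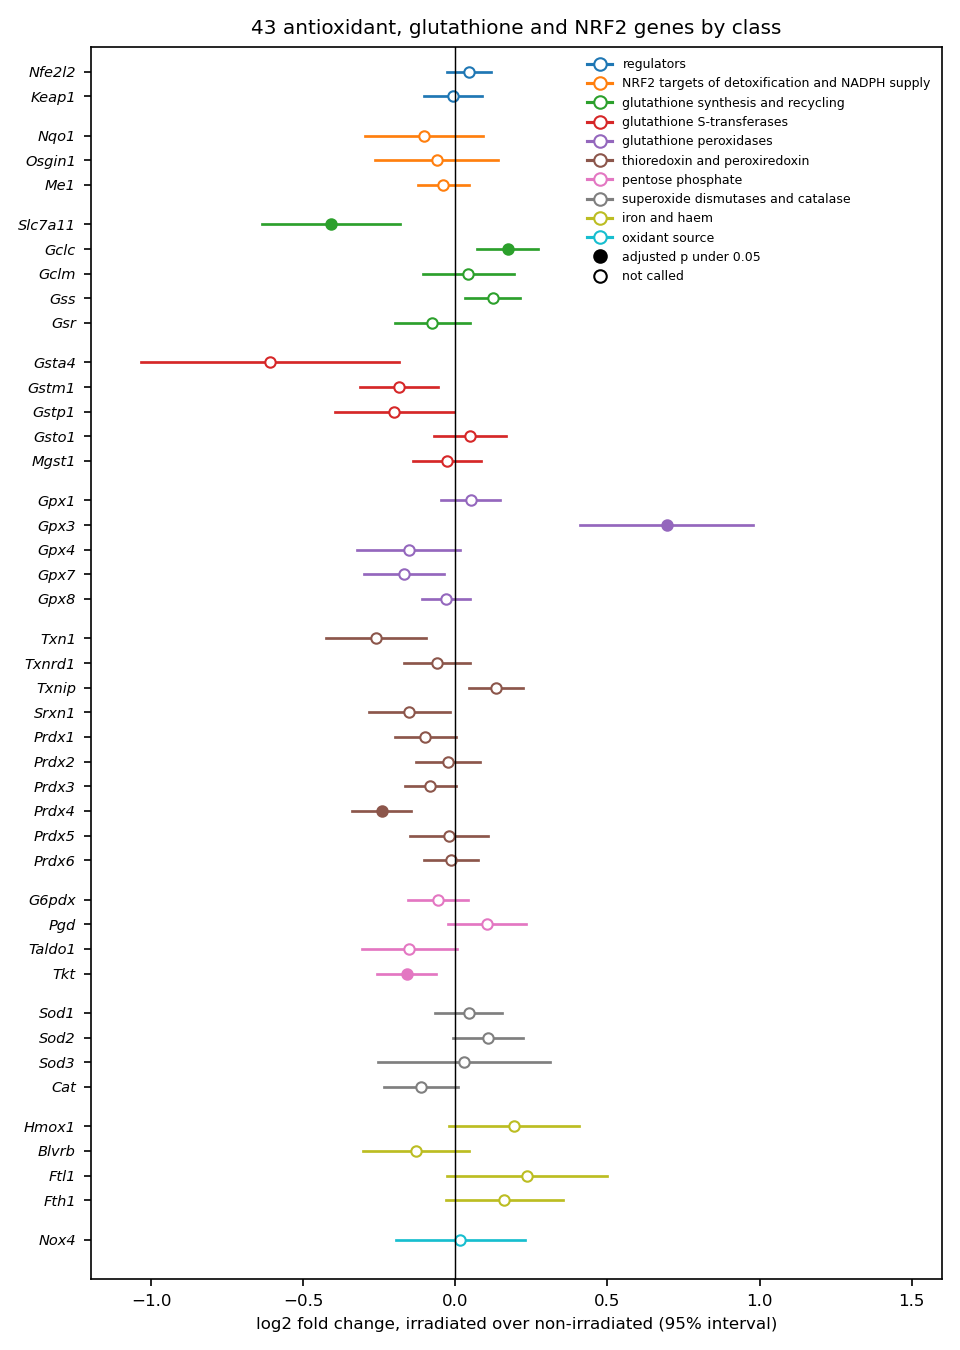
Log2 fold change of each of the 43 genes (x axis, irradiated over non-irradiated, 4 libraries each) with its 95% interval, grouped by class down the page, with filled points for genes at an adjusted p under 0.05. The 5 filled points are Slc7a11 (-0.41), Gclc (0.17), Gpx3 (0.69), Prdx4 (-0.24) and Tkt (-0.16), and the interval of Gsta4 is the widest.

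Neither regulator was called by edgeR, DESeq2 or limma-voom, and 0 of the 2 had an unadjusted p under 0.05. Nfe2l2 stood at 467.3, 455.6, 459.7 and 449.9 CPM in irradiated libraries I to IV, and at 447.8, 431.4, 459.6 and 438.1 CPM in non-irradiated libraries I to IV. The groups overlapped at their edges, and the log2 fold change was 0.04 (SE 0.03, 95% interval -0.03 to 0.12, adjusted p = 0.487). Keap1, the adaptor that targets NRF2 for degradation, averaged 40.5 ± 1.03 CPM in irradiated and 40.7 ± 2.02 CPM in non-irradiated libraries (SD, n = 4 each). Its interval of -0.10 to 0.09 on the log2 scale lay inside 1.1-fold in either direction. Per kilobase of exon, Nfe2l2 held 118.9 ± 3.14 CPM over the 8 libraries and Keap1 8.64 ± 0.317 CPM.

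None of the 3 targets of NRF2 in detoxification and NADPH supply was called by edgeR, DESeq2 or limma-voom, and 0 of them had an unadjusted p under 0.05. Me1, cytosolic malic enzyme and a source of NADPH, stood at 39.6, 40.9, 40.3 and 41.2 CPM in irradiated libraries and at 40.1, 41.4, 42.8 and 42.3 CPM in non-irradiated libraries. The groups overlapped, and the log2 fold change was -0.04 (SE 0.04, 95% interval -0.12 to 0.04, adjusted p = 0.606). Nqo1, the quinone reductase often used as a readout of NRF2, was low at 5.42 ± 0.325 CPM in irradiated and 5.84 ± 0.540 CPM in non-irradiated libraries (SD, n = 4 each). Its interval, -0.30 to 0.09 on the log2 scale, holds both no difference and a modest fall. Osgin1, an oxidative stress response gene, averaged 6.30 CPM in irradiated and 6.59 CPM in non-irradiated libraries, with an interval of -0.26 to 0.14.

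Within glutathione synthesis, the cystine importer fell and the enzyme of the first step rose. Slc7a11 encodes the light chain of system xc-, which exchanges glutamate for the cystine that supplies cysteine to glutathione, and it lies on the minus strand at chr3:49892526-50443614 (mm10, GENCODE M21). It stood at 40.8, 39.0, 42.8 and 45.2 CPM in irradiated libraries I to IV, and at 57.8, 45.6, 70.0 and 49.0 CPM in non-irradiated libraries I to IV. Every irradiated library was below every non-irradiated library, but irradiated IV and non-irradiated II were close, and non-irradiated III stood highest. The log2 fold change was -0.41 (SE 0.10, 95% interval -0.64 to -0.18, adjusted p = 0.0334), or 0.753-fold. The call did not hold without any 1 of the 4 irradiated libraries or without non-irradiated I (adjusted p of 0.00566 to 0.0923 over the 8 fits that left out 1 library), nor with DESeq2 (adjusted p = 0.0547). Without both non-irradiated I and III, the libraries with the higher levels, the log2 fold change was -0.17.

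Gclc, the catalytic subunit of glutamate-cysteine ligase, which sets the rate of glutathione synthesis, lies on the plus strand at chr9:77754535-77794485. It stood at 95.5, 91.9, 98.4 and 100.9 CPM in irradiated libraries and at 88.2, 80.7, 91.0 and 83.5 CPM in non-irradiated libraries. The groups did not overlap, although irradiated II lay close to non-irradiated III. The rise was 1.13-fold (log2 fold change 0.17, SE 0.05, 95% interval 0.07 to 0.27, adjusted p = 0.0452). The call held without irradiated II or non-irradiated III and was lost without each of the other 6 libraries (adjusted p up to 0.135), and with scaling to total counts it was 0.0512.

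Gclm, Gss and Gsr did not pass the test. Gclm, the modifier subunit of the same ligase and a carrier of the antioxidant response element core printed above, averaged 29.6 ± 2.24 CPM in irradiated and 28.7 ± 2.63 CPM in non-irradiated libraries, with an interval of -0.11 to 0.19. Gss, glutathione synthetase of the second step, stood at 74.4, 73.8, 75.2 and 72.5 CPM in irradiated libraries and at 70.7, 66.3, 70.8 and 64.1 CPM in non-irradiated libraries. Its groups did not overlap, yet its adjusted p was 0.106 (log2 fold change 0.12). Gsr, which regenerates reduced glutathione with NADPH, averaged 38.1 ± 1.70 CPM in irradiated and 40.1 ± 3.28 CPM in non-irradiated libraries (adjusted p = 0.494). Levels per kilobase of exon over the 8 libraries were 24.2 ± 1.86 CPM for Gclc, 12.0 ± 0.667 CPM for Gss and 4.63 ± 0.367 CPM for Gclm.

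**Figure D2:**
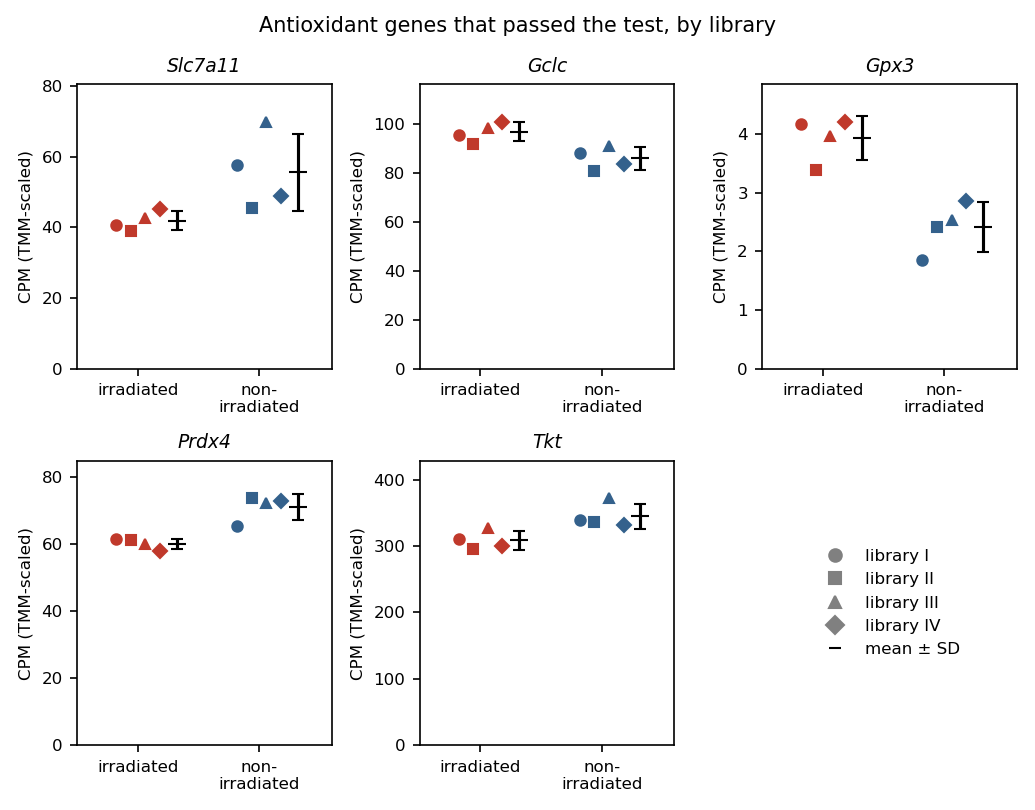
CPM (y axis, linear from 0) of the 5 genes at an adjusted p under 0.05 in each of the 4 irradiated and 4 non-irradiated libraries (marker shape gives the library), with mean ± SD. The groups do not overlap in any of the 5 panels, and for Slc7a11 the non-irradiated libraries spread from 45.6 to 70.0 CPM.

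The glutathione S-transferases, which attach glutathione to electrophiles, gave no call among their 5 genes in the main edgeR fit, DESeq2 (which gave Gsta4 no adjusted p) or limma-voom. Of the 5, 3 had an unadjusted p under 0.05, against 21.2% of all genes tested, and the median log2 fold change was -0.19. Gsto1, an omega-class transferase, stood at 112.0, 107.4, 122.0 and 117.1 CPM in irradiated libraries and at 111.0, 107.0, 122.3 and 103.3 CPM in non-irradiated libraries. The groups covered nearly the same range (log2 fold change 0.05, SE 0.06, adjusted p = 0.684). Gsta4, an alpha-class enzyme that handles the lipid peroxidation product 4-hydroxynonenal, was near the limit of the filter with 16 to 27 counts in irradiated and 26 to 35 counts in non-irradiated libraries. It averaged 0.607 ± 0.0943 CPM in irradiated and 0.934 ± 0.115 CPM in non-irradiated libraries, without overlap, at an adjusted p of 0.0858 (log2 fold change -0.61, 95% interval -1.04 to -0.18). Gstm1 stood at 38.6, 35.2, 34.7 and 34.8 CPM in irradiated libraries and at 42.2, 36.9, 44.6 and 39.3 CPM in non-irradiated libraries. Irradiated I overlapped non-irradiated II, and the log2 fold change was -0.19 (adjusted p = 0.0815). Gstp1 averaged 17.8 ± 1.85 CPM in irradiated and 20.5 ± 2.48 CPM in non-irradiated libraries (adjusted p = 0.223). Mgst1, a membrane-bound transferase, averaged 47.2 ± 0.533 CPM in irradiated and 48.1 ± 3.85 CPM in non-irradiated libraries (adjusted p = 0.806). The mu and pi classes have close paralogs, and how reads that map to several genes were counted is not given in the sources used here, so Gstm1 and Gstp1 are uncertain in level.

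Of the glutathione peroxidases, Gpx3 rose and the other 4 genes did not pass the test. Gpx3, the secreted peroxidase of plasma and extracellular fluid, lies on the plus strand at chr11:54902453-54910377. It stood at 4.18, 3.39, 3.96 and 4.22 CPM in irradiated libraries and at 1.85, 2.42, 2.54 and 2.87 CPM in non-irradiated libraries, which rest on 112 to 151 counts in irradiated and 53 to 94 counts in non-irradiated libraries. Every irradiated library was above every non-irradiated library. The rise was 1.62-fold (log2 fold change 0.69, SE 0.13, 95% interval 0.41 to 0.98, adjusted p = 0.00607), and the call held in each fit that left out 1 library and in all 19 alternative fits. The gene was low in either group, at 1.75 ± 0.493 CPM per kilobase of exon over the 8 libraries.

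Gpx8, a peroxidase of the endoplasmic reticulum membrane, was the most abundant of the class. It stood at 135.3, 134.5, 140.9 and 140.1 CPM in irradiated libraries and at 136.6, 146.3, 138.9 and 141.3 CPM in non-irradiated libraries. The groups overlapped, with a log2 fold change of -0.03 (SE 0.04, 95% interval -0.11 to 0.05, adjusted p = 0.676). Gpx1, the cytosolic and mitochondrial enzyme, averaged 113.0 ± 3.90 CPM in irradiated and 109.1 ± 5.79 CPM in non-irradiated libraries (adjusted p = 0.569). Gpx4, which reduces lipid hydroperoxides in membranes and thereby restrains ferroptosis, averaged 27.9 ± 1.39 CPM in irradiated and 31.1 ± 4.18 CPM in non-irradiated libraries, with an interval of -0.32 to 0.02 (adjusted p = 0.288). A near copy, Gpx4-ps2, held 216 counts against 7799 for Gpx4, so the level of Gpx4 also depends on how multi-mapped reads were treated. Gpx7, a second enzyme of the endoplasmic reticulum, averaged 19.8 ± 1.13 CPM in irradiated and 22.3 ± 1.32 CPM in non-irradiated libraries without overlap (adjusted p = 0.119). Per kilobase of exon the order of levels was Gpx8 at 132.9 ± 3.65 CPM, Gpx1 at 77.1 ± 3.49 CPM, Gpx4 at 17.1 ± 1.94 CPM, Gpx7 at 16.3 ± 1.35 CPM and Gpx3. Gpx4 and Gpx7 differed by less than the spread over libraries, while the other neighbours in this order differed by more. That spread does not measure error in the exon length.

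Of the 10 genes of the thioredoxin and peroxiredoxin system, Prdx4 was the one called by edgeR, and it fell. Unadjusted p was under 0.05 for 4 of the 10, against 21.2% of all genes tested, and 9 of the 10 log2 fold changes were below 0 with a class median of -0.07. Prdx4, the peroxiredoxin of the endoplasmic reticulum, lies on the minus strand at chrX:155323918-155340754. It stood at 61.4, 61.1, 59.9 and 58.0 CPM in irradiated libraries and at 65.4, 73.7, 72.3 and 73.0 CPM in non-irradiated libraries. The groups did not overlap, with non-irradiated I nearest to the irradiated libraries. The log2 fold change was -0.24 (SE 0.04, 95% interval -0.34 to -0.15, adjusted p = 0.00494), or 0.845-fold, and the call held in each fit that left out 1 library and in all 19 alternative fits.

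The other 5 peroxiredoxins did not pass the test. Prdx1, whose promoter core is printed above, averaged 176.3 ± 3.28 CPM in irradiated and 188.8 ± 13.8 CPM in non-irradiated libraries (adjusted p = 0.247). Prdx3, the mitochondrial member, averaged 60.3 ± 0.880 CPM in irradiated and 63.9 ± 2.42 CPM in non-irradiated libraries without overlap (adjusted p = 0.249). Prdx2, Prdx5 and Prdx6 had log2 fold changes of -0.03, -0.02 and -0.01, with adjusted p-values of 0.821 to 0.890. Prdx2 overlaps Junb on the opposite strand, which held 145813 counts over the 8 libraries against 44090 for Prdx2, and the strand setting of the counting is not given in the sources used here. Gss, G6pdx and Sod1 likewise overlap Acss2, Ikbkg and Scaf4 on the opposite strand and are uncertain for the same reason. Per kilobase of exon, Prdx5 was highest of the peroxiredoxins at 110.0 ± 7.91 CPM, followed by Prdx1 at 60.0 ± 3.76, Prdx6 at 54.8 ± 2.19, Prdx2 at 54.4 ± 2.82, Prdx3 at 42.0 ± 1.72 and Prdx4 at 31.2 ± 3.07 CPM. Of these neighbours, Prdx6 and Prdx2 differed by less than their spread over libraries. Exon length joins the exons of all annotated transcripts, so the order also depends on the annotation, which that spread does not measure. The length was 4804 bases for Prdx6 and 2139 for Prdx5, although Prdx6 had the higher mean CPM in both groups.

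Txnip, the thioredoxin-interacting protein that binds and inhibits thioredoxin, was the most abundant of the 43 genes per kilobase of exon, at 747.3 ± 45.8 CPM. It stood at 2555, 2410, 2458 and 2343 CPM in irradiated libraries and at 2122, 2348, 2206 and 2228 CPM in non-irradiated libraries. Irradiated IV lay just below non-irradiated II and the other 3 irradiated libraries above all non-irradiated ones. The log2 fold change was 0.13 (SE 0.04, 95% interval 0.04 to 0.22, adjusted p = 0.0760), which missed the threshold in edgeR and passed it with DESeq2 (adjusted p = 0.0186) and limma-voom (adjusted p = 0.0457). Txn1, thioredoxin itself, stood at 175.3, 174.9, 182.0 and 163.7 CPM in irradiated libraries and at 240.4, 173.2, 219.2 and 201.1 CPM in non-irradiated libraries. Non-irradiated II fell within the irradiated range, and the log2 fold change was -0.26 (95% interval -0.42 to -0.10, adjusted p = 0.0588). Leaving out non-irradiated II, the lowest of its group, deepens the fall by construction, to a log2 fold change of -0.34. Over the 8 edgeR fits that left out 1 library, the adjusted p of Txn1 ran from 0.00233 (that fit) to 0.166. Only 1 of the 8 called it. DESeq2 called Txn1 (adjusted p = 0.0133) and limma-voom did not. Of all 19 alternative fits, 6 called it. Among them was edgeR with upper-quartile factors (adjusted p = 0.0481), with total counts (0.041) and without the low-count filter (1.18e-06).

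Srxn1, sulfiredoxin, which repairs overoxidized peroxiredoxins and is a widely used NRF2 target, stood at 85.6, 88.3, 88.0 and 85.3 CPM in irradiated libraries and at 99.7, 86.0, 109.2 and 90.5 CPM in non-irradiated libraries. The irradiated libraries lay close together and non-irradiated II lay among them (log2 fold change -0.15, 95% interval -0.29 to -0.02, adjusted p = 0.178). Txnrd1, the NADPH-dependent reductase of thioredoxin and a carrier of the core printed above, averaged 440.5 ± 13.9 CPM in irradiated and 459.1 ± 36.2 CPM in non-irradiated libraries (adjusted p = 0.545).

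Of the pentose phosphate enzymes, which supply NADPH and ribose, Tkt fell and the other 3 genes did not pass the test. Tkt, transketolase of the non-oxidative branch, lies on the plus strand at chr14:30548359-30574720. It stood at 309.8, 295.5, 327.5 and 300.1 CPM in irradiated libraries and at 338.6, 335.5, 372.1 and 331.5 CPM in non-irradiated libraries. The groups did not overlap, and irradiated III lay close to non-irradiated IV. The log2 fold change was -0.16 (SE 0.04, 95% interval -0.26 to -0.06, adjusted p = 0.0492), or 0.895-fold. Of the 8 fits that left out 1 library, the fit without irradiated III kept this call (adjusted p = 0.0330) and the other 7 did not, with adjusted p up to 0.149.

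Taldo1, transaldolase of the same branch, stood at 182.0, 175.3, 194.6 and 183.9 CPM in irradiated libraries and at 215.0, 181.6, 237.2 and 183.2 CPM in non-irradiated libraries. Non-irradiated I and III were high and II and IV lay within the irradiated range (log2 fold change -0.15, adjusted p = 0.254). The enzymes of the oxidative branch differed in sign. G6pdx, which commits glucose 6-phosphate to the pathway, averaged 63.2 ± 1.04 CPM in irradiated and 65.7 ± 4.15 CPM in non-irradiated libraries (adjusted p = 0.525). Pgd, which makes the second NADPH, stood at 117.8, 110.7, 97.7 and 100.6 CPM in irradiated libraries and at 105.7, 94.8, 101.3 and 95.4 CPM in non-irradiated libraries. Irradiated I and II, the libraries with the most mitochondrial ribosomal RNA, were the high ones for Pgd (log2 fold change 0.10, adjusted p = 0.340). Without both the log2 fold change was -0.003, but leaving out the highest irradiated libraries lowers it by construction. A link of Pgd with mitochondrial ribosomal RNA was not tested.

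None of the 4 superoxide dismutase and catalase genes was called by edgeR, DESeq2 or limma-voom, and 0 of them had an unadjusted p under 0.05. Sod2, the manganese enzyme of mitochondria, stood at 435.5, 467.2, 444.4 and 419.8 CPM in irradiated libraries and at 384.1, 427.4, 449.2 and 379.4 CPM in non-irradiated libraries. The groups overlapped, with non-irradiated I and IV lowest (log2 fold change 0.11, SE 0.05, 95% interval -0.01 to 0.22, adjusted p = 0.277). Sod1, the cytosolic copper and zinc enzyme, averaged 87.6 ± 2.80 CPM in irradiated and 84.9 ± 6.36 CPM in non-irradiated libraries (adjusted p = 0.688). Sod3, the secreted form, was low at 3.84 ± 0.627 CPM in irradiated and 3.79 ± 0.486 CPM in non-irradiated libraries, and its interval of -0.26 to 0.31 was among the wider ones. Cat, the peroxisomal catalase, averaged 92.3 ± 2.85 CPM in irradiated and 99.9 ± 9.06 CPM in non-irradiated libraries (adjusted p = 0.277).

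The iron and haem genes had the highest class median log2 fold change, 0.18 over 4 genes. None was called by the main edgeR fit, DESeq2 or limma-voom, and 0 of the 4 had an unadjusted p under 0.05 in that edgeR fit. Fth1, the ferritin heavy chain that stores iron, stood at 531.6, 554.5, 544.3 and 511.0 CPM in irradiated libraries and at 506.1, 402.3, 583.1 and 424.6 CPM in non-irradiated libraries. Non-irradiated III was the highest of all 8 libraries and II and IV the lowest (log2 fold change 0.16, SE 0.09, 95% interval -0.03 to 0.35, adjusted p = 0.330). Hmox1, haem oxygenase 1, which frees iron from haem and is an NRF2 and BACH1 target, stood at 390.4, 364.2, 383.3 and 371.4 CPM in irradiated libraries and at 371.9, 273.6, 397.6 and 278.2 CPM in non-irradiated libraries. The irradiated libraries lay close together, while the non-irradiated libraries formed a high pair, I and III, and a low pair, II and IV (log2 fold change 0.19, 95% interval -0.02 to 0.41, adjusted p = 0.290). Both values turn on the non-irradiated pairs. Without I and III the log2 fold change was 0.45 for Hmox1 and 0.37 for Fth1. Since I and III are the libraries with the higher levels, leaving them out raises the fold by construction, and no test is given. Leaving out non-irradiated III alone, the highest library for Fth1, raised its fold in the same way, to a log2 fold change of 0.27. Over the 8 edgeR fits that left out 1 library, the adjusted p of Fth1 ran from 0.0303 (that fit) to 0.556. Only 1 of the 8 called it. With all libraries kept and no low-count filter, edgeR called Hmox1 (log2 fold change 0.19, adjusted p = 0.000428) and Fth1 (0.16, adjusted p = 0.00501). That fit called 648 of all genes higher, against 395 in the main fit.

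Blvrb, biliverdin reductase B, stood at 52.3, 48.0, 53.6 and 52.5 CPM in irradiated libraries and at 55.7, 49.2, 68.1 and 52.2 CPM in non-irradiated libraries, where III alone stood out (adjusted p = 0.397). Ftl1, the ferritin light chain, averaged 7.55 ± 0.761 CPM in irradiated and 6.45 ± 1.24 CPM in non-irradiated libraries (adjusted p = 0.291). Per kilobase of exon and over the 8 libraries, Fth1 stood at 146.2 ± 18.2 CPM and Ftl1 at 5.22 ± 0.835 CPM. Ftl1 held 1842 counts in all and has near copies in the annotation, of which Ftl1-ps1 and Ftl1-ps2 held 16 and 24 counts. It also overlaps Gm10252 on the opposite strand, which held 583 counts, so its level depends on how multi-mapped reads and strand were treated. Nox4, the NADPH oxidase that makes hydrogen peroxide in fibroblasts, stood at 7.80, 7.17, 7.60 and 8.93 CPM in irradiated libraries and at 6.84, 8.93, 7.15 and 8.19 CPM in non-irradiated libraries. The groups covered the same range (log2 fold change 0.02, SE 0.10, 95% interval -0.20 to 0.23, adjusted p = 0.950).

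**Figure D3:**
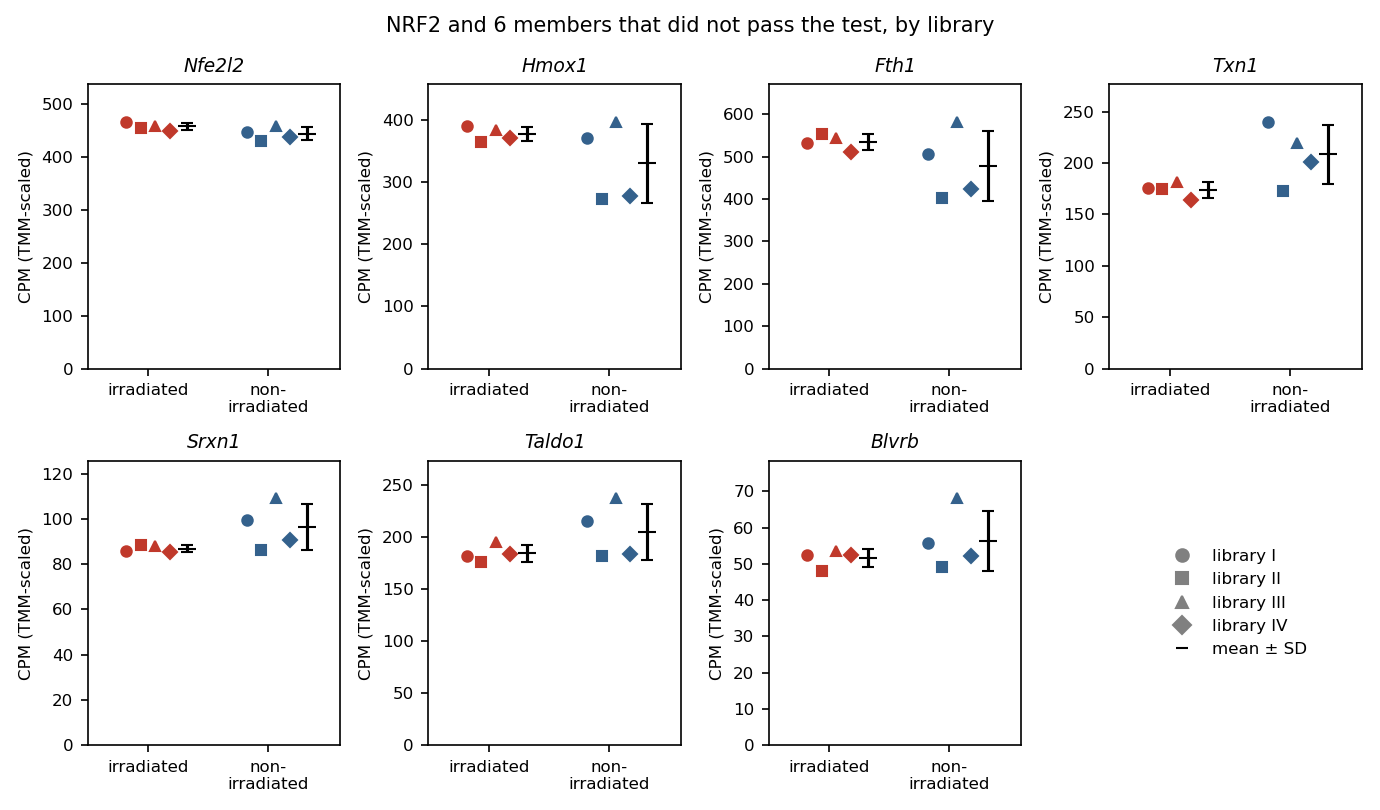
CPM (y axis, linear from 0) of Nfe2l2 and of 6 genes, chosen after their values were seen, that did not pass the test, in each of the 4 irradiated and 4 non-irradiated libraries with mean ± SD (marker shape gives the library). For Hmox1 the non-irradiated libraries split into 371.9 and 397.6 CPM (I and III) and 273.6 and 278.2 CPM (II and IV), while the irradiated ones lie between 364.2 and 390.4 CPM.

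These genes varied more among non-irradiated than among irradiated libraries. The coefficient of variation was larger in the non-irradiated group for 39 of the 43 genes, against 65.8% of all genes tested. Its median over the 43 genes was 4.36% in irradiated and 7.99% in non-irradiated libraries. Over the 9302 genes at 10 CPM or more it was 3.75% in irradiated and 5.18% in non-irradiated libraries. The 43 genes were not held to that minimum, and several, such as Gpx3 and Gsta4, were below it, so these medians are of unlike sets. In the irradiated group, III was the highest library for 16 and II the lowest for 19 of the 43 genes, against 27.9% and 26.1% of all genes tested. In the non-irradiated group, III was the highest for 29 of the 43 genes, against 25.7% of all genes tested, and II was the lowest for 20, against 24.3%. Non-irradiated III was also the deepest library, with 37157216 counts, and had the least mitochondrial ribosomal RNA, and the part of either in this pattern was not tested. Non-irradiated I and III were both above II and IV for 27 of the 43 genes (62.8%), Slc7a11, Gclc, Tkt, Txn1, Srxn1, Hmox1 and Fth1 among them, against 25.9% of all genes tested. This division of the libraries was chosen after the values were seen, and the labels give no batch or other feature that goes with it.

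**Figure D4:**
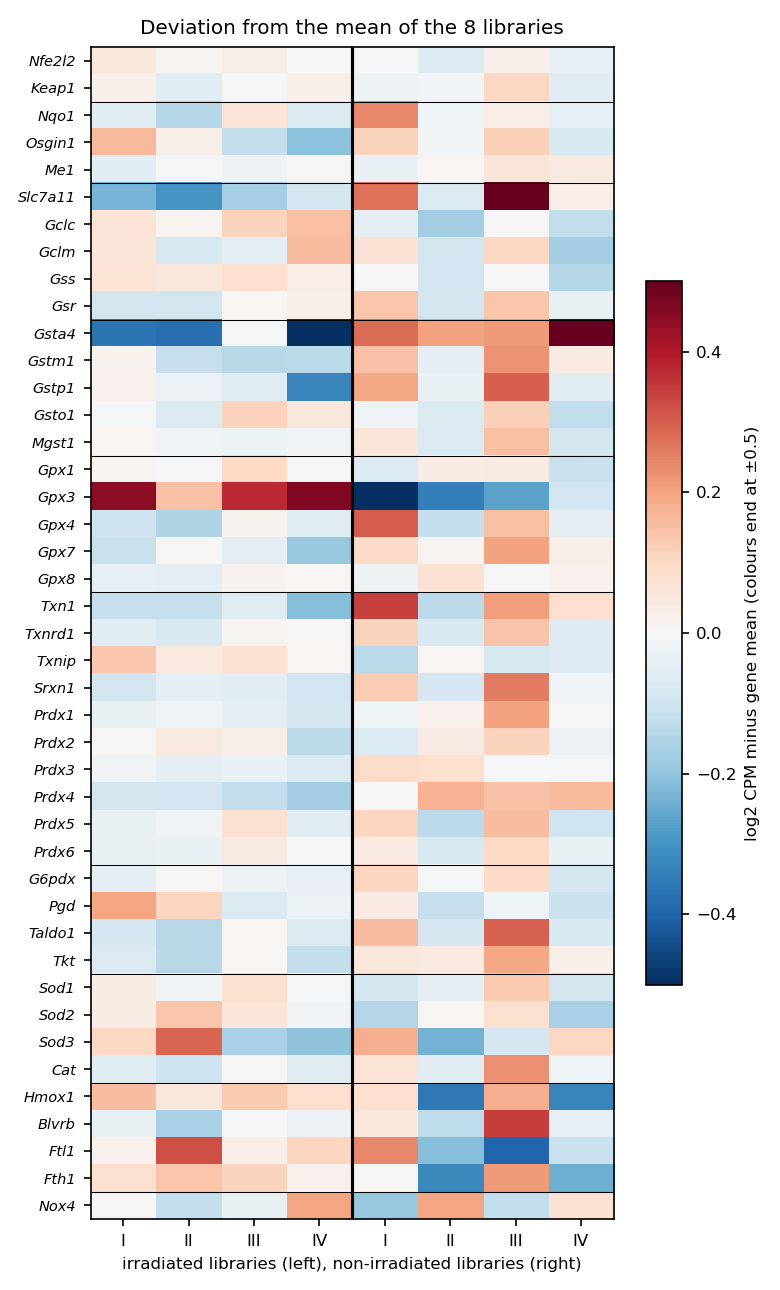
Deviation of each of the 43 genes (down the page, by class) from its mean over the 8 libraries, on a log2 CPM scale, with the irradiated libraries I to IV at the left and the non-irradiated libraries I to IV at the right. Non-irradiated III is the highest of its group for 29 of the 43 genes.

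**Figure D5:**
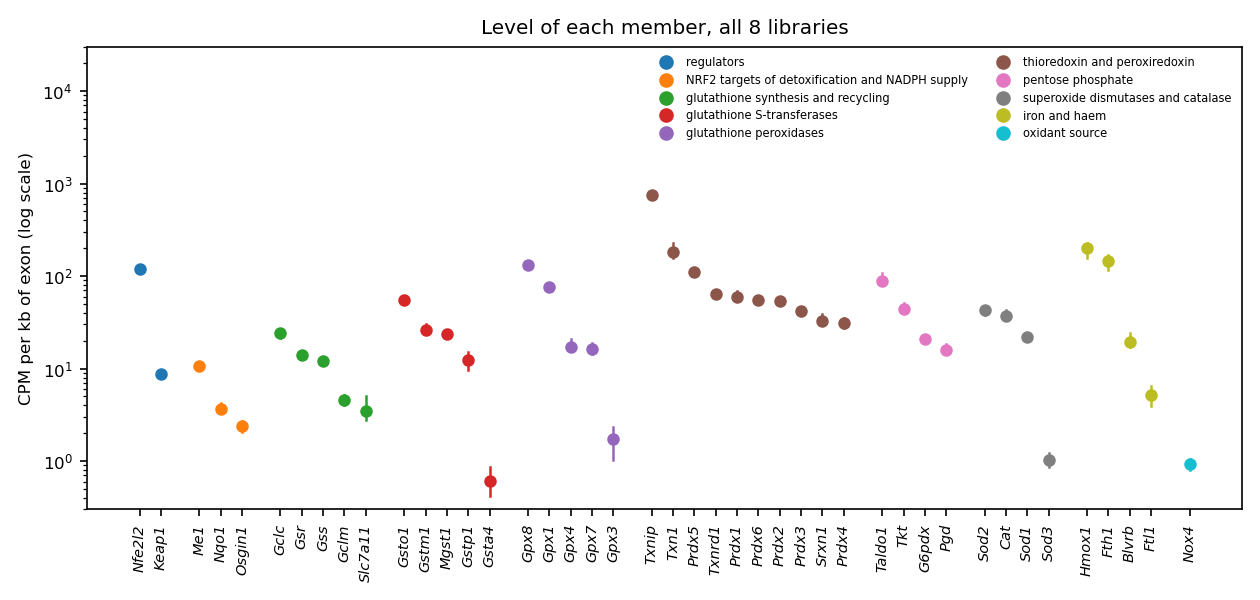
Level of each of the 43 genes in CPM per kilobase of exon (log axis), by class. Points are means and lines run from the lowest to the highest of the 8 libraries. The levels run from Txnip at 747.3 to Gsta4 at 0.608 CPM per kilobase.

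A wider list of 130 genes of the same pathways, none of them among the 43, placed these results in context. Of the 109 that were tested, 4 rose and 4 fell, against a background of 2.59% of all genes called higher and 4.15% called lower, and the median log2 fold change of the 109 was 0.004. Among these 8 called genes the largest change was that of Aldh1l2, the mitochondrial folate enzyme that makes NADPH, which fell. It stood at 29.4, 30.8, 32.7 and 32.9 CPM in irradiated libraries and at 54.1, 44.4, 51.0 and 51.2 CPM in non-irradiated libraries, with no overlap (log2 fold change -0.67, SE 0.06, adjusted p = 2.89e-05). Idh2, the mitochondrial NADPH-producing isocitrate dehydrogenase, also fell, to 85.8 ± 3.90 CPM in irradiated against 100.8 ± 8.53 CPM in non-irradiated libraries (adjusted p = 0.0275). These were the edgeR calls among the 12 other NADPH supply genes tested, and DESeq2 also called Pgls and Rpe (adjusted p of 0.0413 and 0.0306).

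Sesn2, a stress-induced inhibitor of mTORC1 signalling, averaged 161.9 ± 8.32 CPM in irradiated and 132.5 ± 2.96 CPM in non-irradiated libraries (log2 fold change 0.29, adjusted p = 0.000768). Arrdc4, an arrestin-domain relative of Txnip, rose by a log2 fold change of 0.16 (adjusted p = 0.0240). These were the edgeR calls among the 15 thioredoxin and methionine sulfoxide genes tested, and DESeq2 also called Msrb3 (adjusted p = 0.0289). Ephx1, microsomal epoxide hydrolase and an NRF2 target, averaged 255.8 ± 8.93 CPM in irradiated and 206.2 ± 5.64 CPM in non-irradiated libraries (log2 fold change 0.31, adjusted p = 0.000168). Abcc1, an exporter of glutathione conjugates, fell by 0.14 on the log2 scale (adjusted p = 0.0365), and these were the calls among 14 other NRF2 targets tested. Ggt1, which cleaves extracellular glutathione, rose to 53.3 ± 2.67 CPM in irradiated against 45.5 ± 2.54 CPM in non-irradiated libraries (adjusted p = 0.0144), and Gstm2 fell by 0.27 on the log2 scale (adjusted p = 0.0469), among 29 other glutathione genes tested. Gstm2, of the mu class, is uncertain in level for the reason given for Gstm1. None of 12 other pathway regulators, 18 other iron and haem genes and 9 other oxidant source and metal defence genes tested was called by edgeR or limma-voom. In each of these lists 1 gene had an unadjusted p under 0.05 in edgeR. DESeq2 called 1 gene of these lists, the iron chaperone Pcbp1 (adjusted p = 0.0177). Unadjusted p was under 0.05 for 6 of 12 NADPH supply genes, 5 of 14 NRF2 targets, 4 of 15 thioredoxin and methionine sulfoxide genes and 3 of 29 glutathione genes. Over the whole wider list it was 21 of 109, against 21.2% of all genes tested. Of the 8 calls, those of Aldh1l2, Ephx1 and Sesn2 held in each fit that left out 1 library. Ggt1 was lost without irradiated IV, Idh2 without irradiated I or II or non-irradiated I or III, and Arrdc4 without irradiated II, III or IV or non-irradiated I or IV. Abcc1 held only without non-irradiated II or IV, and Gstm2 only without irradiated I or non-irradiated IV.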

How the data were processed

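The authors deposited unnormalized read counts per Ensembl gene, in a separate file for each of the 8 libraries. The submitters' processing notes list the build mm10 and, as tools, featureCounts 1.5.0-p1, STAR 2.5.2a and bcl2fastq 2.20.0.422. Not given in the sources used here are the treatment of multi-mapped reads, the strand setting and the annotation release. PolyA RNA is the molecule that the labels name. Symbols, coordinates and exon lengths came from GENCODE M21 (GRCm38), which named 55480 of 55573 identifiers. The 93 without a symbol held 0.0004% of counts. The exon length of a gene was the union of the exons of all its annotated transcripts. Levels per kilobase therefore depend on which transcripts are annotated, and the SD over libraries does not measure that.

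The deposited counts entered the quasi-likelihood test of edgeR 4.0.16 (R 4.3.3) with TMM factors, filterByExpr (minimum count 10, minimum total 15), all 8 libraries and group as the sole term. The filter left out 40314 genes. Calls used a Benjamini-Hochberg adjusted p under 0.05 over the 15259 genes tested. Each SE was derived from the F statistic and the fold change, and intervals are 95%. CPM were computed from the deposited counts. The pipeline was tested on simulated data. Total counts of 28731227 to 37157216 per library set the precision, and a gene at 0 could hold up to 3 counts by counting error alone.

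The 43 genes, the wider list and the marker lists were chosen with earlier results of these data known. Named with values per library were called genes and the most abundant gene of each class, and a few others were chosen after their values were seen. Nnt was left out of the wider list because 2 identifiers hold its symbol. Alternatives were RLE, upper-quartile and total-count scaling, DESeq2 1.42.0, limma-voom 3.58.1, no low-count filter, at least 1 CPM in 4 libraries, removal of GC and length trends (loess, span 0.5), a threshold of 0.01, the replicate number as a block, each library left out in turn, and irradiated I and II or non-irradiated I and III left out together.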

Additional observations from a re-analysis of the deposited data

Results flagged for a closer look

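Gstm1, a mu-class glutathione S-transferase, stood at 38.61 CPM in irradiated library I, against 34.66 to 35.17 CPM in the other 3 irradiated libraries. The gap to the nearest library was 0.87 of the range of the group, above the 95% critical value of Dixon's test for 4 samples. Each of the 43 genes was examined in both groups, 86 groups in all, and 1 stood out. Chance would flag about 5% of groups.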

How the results depend on the processing

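Gpx3 and Prdx4 kept their calls and directions in all 19 alternative fits and at an adjusted p under 0.01. Over the 43 genes, 468 fold changes kept their direction and side of the threshold in the alternatives other than those that left out 1 library, 17 gained a call, 13 lost it and 16 changed sign. These counts include the main fit read at an adjusted p under 0.01, which has the same fold changes. There Slc7a11, Gclc and Tkt lost their calls. Where 1 library was left out, 306 kept both, 4 gained a call, 18 lost it and 16 changed sign. Gsta4 had no value under the 1 CPM filter and no adjusted p in DESeq2.

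Against 2 of the 43 genes called higher, there were 1 with total counts, with GC and length trends removed, without both irradiated I and II and at 0.01, and 5 both without a low-count filter and when non-irradiated I and III were left out together. Against 3 called lower, there were 6 without a filter and 1 in each of the fits without both irradiated I and II, without both non-irradiated I and III, and at 0.01. Over all genes, 648 were called higher without a filter and 140 at 0.01, and 295 lower without both irradiated I and II and 296 at 0.01, against 395 higher and 634 lower. Of the wider list, 7 were called higher with DESeq2 or when non-irradiated I and III were left out together, 2 at 0.01, and 1 lower without both irradiated I and II and at 0.01, against 4 each. Leaving out 1 library gave 1 to 3 of the 43 genes higher and 1 to 4 lower, 221 to 402 and 415 to 611 of all genes, and 3 to 6 and 1 to 5 of the wider list. The median log2 fold change of the 43 genes then ran from -0.06 to -0.02, and it was 0.026, above 0, when non-irradiated I and III were left out together. That pair was chosen after the values were seen and stood above II and IV for 27 of the 43 genes. Leaving it out raises those fold changes by construction, so the 5 genes called higher in that fit and its median are not support for a rise.

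Sign changes concerned genes that were not called in either fit. Without both irradiated I and II, the log2 fold changes were 0.0024 for Keap1, 0.012 for Prdx6, -0.0029 for Pgd and -0.18 for Sod3. Without both non-irradiated I and III, they were 0.032 for Keap1, 0.024 for Osgin1, 0.030 for Gsr, 0.070 for Mgst1, 0.010 for Gpx4, 0.043 for Txnrd1, 0.11 for Prdx5, 0.052 for Prdx6, 0.021 for G6pdx, 0.013 for Taldo1, 0.026 for Blvrb and -0.12 for Nox4. With 1 library left out, they ran from -0.074 to 0.092 for Sod3, -0.027 to 0.029 for Keap1, -0.0068 to 0.088 for Gclm, -0.052 to 0.014 for Prdx2, -0.045 to 0.091 for Nox4, -0.064 to 0.030 for Prdx5, -0.063 to 0.021 for Mgst1 and -0.039 to 0.018 for Prdx6. Of the genes listed for the fit without both non-irradiated I and III, all but Keap1 and Nox4 had I and III above II and IV. For these genes, leaving out that pair raises the log2 fold change by construction. Nox4 had I and III below II and IV, so the same step lowers its value by construction. The cause of the other sign changes was not tested.

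Deviations from the group means correlated at 0.02, -0.03, 0.27 and 0.15 for like replicate numbers I to IV. For unlike numbers the correlations ran from -0.23 to 0.15. These values do not settle whether the numbers pair the samples, and the main fit did not pair them. With the replicate number as a block, 2 of the 43 genes were called higher and 5 lower (550 and 802 of all genes), where Gstm1 (-0.19, adjusted p = 0.0465) and Txn1 (-0.25, adjusted p = 0.0300) joined.

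Gsta4, Gpx3 and Sod3 rest on few counts and had among the widest intervals. Slc7a11, Gclc and Tkt lie near the threshold: with GC and length trends removed their adjusted p was 0.0676, 0.0653 and 0.0587.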
